A study of Drosophila melanogaster with 34 samples.

Results

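The pair-rule genes of Drosophila melanogaster are described here in single embryos that carry a light-sensitive form of Zelda, a transcription factor supplied by the mother that opens the early genome for transcription. The 8 genes even skipped (eve), hairy (hry, older symbol h), fushi tarazu (ftz), odd skipped (odd), paired (prd), sloppy paired 1 and 2 (slp1, slp2) and odd paired (opa) were taken from the count table by their FlyBase identifiers, 8 of 17491 genes. They were read in all 34 embryos of 9 groups. The genotype CRY2-ZLD; His2AvRFP carries Zelda fused to CRY2, a plant protein that gathers into clusters under blue light. The wild type, His2AvRFP, has Zelda without the fusion. Both genotypes carry the fluorescent histone His2AvRFP, by which each embryo was staged under the microscope. Light of 488 nm was on during nuclear cycles (NC) 10 to 14, 10 to 12, 13 to 14, or during NC14 alone, and per the labels every embryo was collected 30 min into NC14. CRY2-ZLD and wild type had 3 embryos each under NC10-14 light and 4 embryos each under NC10-12, NC13-14 and NC14 light. A further 4 CRY2-ZLD embryos received no light, and no unlit wild-type embryos were analysed here. The design asks what the embryo's genes do when the Zelda fusion is lit early, late or throughout the period in which the embryo's own genome is switched on. Zelda protein and its activity were not measured in these data.

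Pair-rule genes encode transcription factors that divide the early embryo into segments, and each of the striped ones is transcribed in a series of bands along the trunk. Their stripes are placed by maternal and gap gene proteins, and the pair-rule proteins then regulate one another and set the borders of segment polarity genes such as engrailed and wingless. The members described first, eve, hry, ftz and odd, belong to the primary pair-rule genes, whose early stripes are largely read from the gap proteins. Paired, slp1 and slp2 are secondary, with patterning that leans more on other pair-rule genes. The opa gene encodes a zinc finger protein of the Zic family, has no stripes when first transcribed and appears late in the cellular blastoderm, so it was kept apart. An older division counts eve and hry as primary and the rest as secondary.

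All 8 genes had lower transcript levels in CRY2-ZLD than in wild-type embryos under NC13-14 light and under NC14 light, where 8.94% and 9.65% of all tested genes were lower, and 7 of 8 did under NC10-14 light, against 7.58%. Under light in NC10-12 alone 5 of 8 were lower, against 16.5% of tested genes, and the fitted differences were nearer to 0 than in each other window, except that of slp2 beside NC10-14. The homeobox gene ftz showed the widest span, with 0.1997% of the wild-type level under NC10-14 light, 51.7% under NC10-12, 0.593% under NC13-14 and 1.16% under NC14. These shares, and those given below, are ratios of group mean CPM. Every difference below is a fitted value from edgeR's quasi-likelihood model over all 34 libraries, unless another measure or fit is named. Differences are given as log2 CRY2-ZLD minus wild type ± an approximate standard error (SE). This SE is the size of the difference divided by the square root of the test's F statistic, not a separately fitted error. Intervals were built from this SE with the same degrees of freedom for every gene, so they are approximate too, also where counts are low. P-values were adjusted by the Benjamini-Hochberg method over 9519 tested genes, and genes were called at an adjusted p under 0.05. Levels are CPM, counts scaled to a common library total after trimmed-mean scaling. One embryo is one library, so a lower level cannot be told apart between fewer cells that transcribe a gene and less RNA per cell, and stripe patterns are not seen.

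The genes lie on 4 chromosome arms, in dm6 coordinates that were the same in the table and in Ensembl release 115. Those of prd are 2L:12082995-12085827 and those of odd 2L:3604224-3606756, both on the minus strand. The neighbouring fork head genes slp1 (2L:3825675-3827099) and slp2 (2L:3836840-3839185) run in the same direction, each in 1 exon, with 9740 bases between them. The plus-strand genes hry (3L:8675759-8679253), ftz (3R:6864324-6866244) and opa (3R:4852813-4869979) are on chromosome 3, and eve is on the arm 2R. Apart from opa the longest member is hry at 3495 bases, against a median of 2663 bases for tested genes. The opa gene spans 17167 bases, longer than 89.7% of tested genes, with 14228 bases of introns. The spans of eve and prd share 235 and 179 exon bases with antisense RNA genes on the other strand. Those antisense genes had 109 and 35 counts in all libraries together. The counting command in the table's header sets no strand option, so reads of eve or prd and of the antisense gene cannot be told apart there. It sets no option for reads that match several places either, which bears on the paralogs slp1 and slp2.

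The libraries held from 4382299 to 41210334 counts, and the next to lowest held 13846445. The 8 genes together received 445 to 77062 counts in a library. The library with the lowest total was wild type NC13-14 replicate 4, in which 8.53% of counts came from nuclear rRNA genes. An earlier analysis of the same table had set apart that embryo, wild type NC10-14 replicate 2, wild type NC14 replicate 3 and CRY2-ZLD NC10-12 replicates 3 and 4. Calls of pair-rule genes that changed without these 5 embryos are given beside the results. Wild type NC10-14 replicate 2 and CRY2-ZLD NC10-12 replicates 3 and 4 were themselves low in the primary pair-rule genes. Fits without the 5 embryos are therefore not separate evidence. Embryos also differed in RNA deposited by the mother. Summed over the tested genes smg, bcd, osk and gcl, maternal RNA came to 1737 to 4320 CPM in the 3 CRY2-ZLD and 1347 to 2165 CPM in the 3 wild-type embryos of NC10-14, and to 2056 and 1303 CPM in CRY2-ZLD NC10-12 replicates 3 and 4. All other embryos held 86.1 to 428 CPM. Genes of the cellularizing blastoderm (slam, nullo, bnk, Nrt and halo) summed to 543 to 1995 CPM in CRY2-ZLD embryos lit in NC10-14, NC13-14 or NC14, and to 5426 to 7712 CPM in those lit in NC10-12, against 5800 to 16614 CPM in wild type. Follicle cell and yolk genes, whose RNA would come from the mother's ovary, summed to 0.182 to 3.94 CPM in all embryos.

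Per kilobase of exon, the pair-rule genes of wild-type embryos under NC13-14 light fell into an order that had the late gene opa beside the early gene ftz at the top. In wild type under NC13-14 light, opa stood at 159.5 ± 37.5 and ftz at 153 ± 8.41 CPM per kilobase (SD, n = 4). Next came hry at 119 ± 19.1, odd at 113 ± 15.9 and eve at 98.6 ± 8.86. The secondary genes were lower, with prd at 65.1 ± 7.90, slp1 at 45.7 ± 5.21 and slp2 at 7.25 ± 1.65. Neighbours in this order lay within 1 SD of each other for opa and ftz and for hry, odd and eve, while prd, slp1 and slp2 were each set off from the gene above by more than both SDs. In CRY2-ZLD embryos under the same light the order was different. There odd stood at 13.6 ± 7.04, eve at 8.95 ± 1.96 and opa at 7.92 ± 3.97 CPM per kilobase, followed by slp1 at 5.49 ± 3.99, prd at 4.09 ± 1.54, hry at 1.21 ± 0.442, ftz at 0.909 ± 0.547 and slp2 at 0.751 ± 0.388. Thus hry and ftz, among the 3 highest in wild type of this window, stood with slp2 at the foot. Wild type under NC10-14 light had another order, with opa at a mean of 13.9 CPM per kilobase, above slp2 alone at 4.18.

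**Figure D1:**
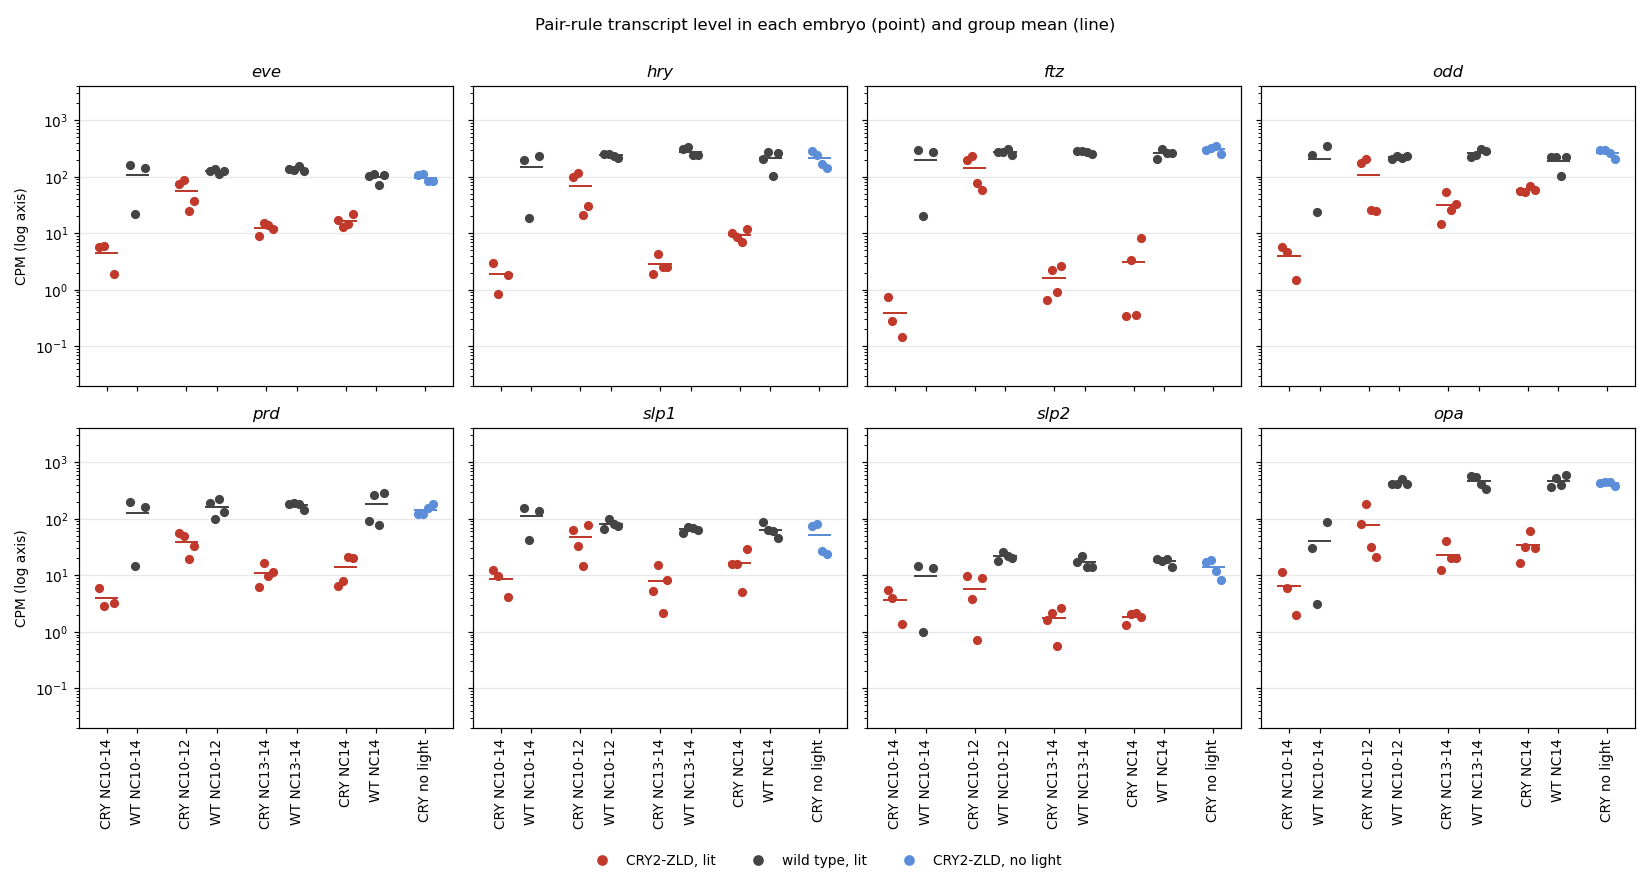
Each panel plots 1 pair-rule gene, with the level in CPM on a log axis and the 9 groups along the x axis, CRY2-ZLD (red) left of wild type (grey) within each light window and unlit CRY2-ZLD (blue) at the right. Points are embryos and lines group means; under NC13-14 light, for example, ftz lay between 0.651 and 2.61 CPM in CRY2-ZLD embryos and between 250.1 and 283 CPM in wild type.

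Among the primary genes, the 4 did not lose transcript alike. The homeobox gene eve, which marks alternate segments, stood at 5.63, 5.92 and 1.90 CPM in the CRY2-ZLD embryos of NC10-14 light, against 160.2, 22.3 and 139.98 CPM in wild type. The 3 CRY2-ZLD embryos all lay below the lowest wild-type embryo, replicate 2, which was itself far below the other two. The difference was -4.59 ± 0.51 (adjusted p = 6.50e-08). Under NC13-14 light eve stood at 9.03, 15.4, 13.98 and 11.9 CPM in CRY2-ZLD embryos, against 139, 134, 156 and 126 CPM in wild type. Under NC14 light it stood at 17.1, 12.9, 14.5 and 21.5 CPM in CRY2-ZLD embryos, against 102, 114, 70.3 and 108 CPM in wild type. Both windows kept the genotypes well apart, with differences of -3.46 ± 0.42 and -2.58 ± 0.40 (adjusted p = 2.68e-07 and 2.59e-05). Under NC10-12 light eve stood at 72.97, 88.8, 24.4 and 37.5 CPM in CRY2-ZLD embryos, against 125, 135, 113 and 125 CPM in wild type. All 4 CRY2-ZLD embryos were again lower, replicates 3 and 4 by far the most, and the difference was -1.15 ± 0.39 (adjusted p = 0.0205). Replicates 3 and 4 are the embryos rich in maternal RNA, and the call ended without either: without replicate 3 the difference was -0.91 (adjusted p = 0.0874), without replicate 4 it was -1.003 (adjusted p = 0.0741), and without all 5 embryos set apart it was -0.64 (adjusted p = 0.113). When scaled by ribosomal protein genes it was -0.89 (adjusted p = 0.145).

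Transcripts of hry, which encodes a repressor of the basic helix-loop-helix class, kept 1.28% of the wild-type level under NC10-14 and 1.01% under NC13-14 light. Under NC10-14 light hry stood at 3.01, 0.840 and 1.86 CPM in CRY2-ZLD embryos, against 197, 18.6 and 232 CPM in wild type. Under NC13-14 light it stood at 1.91, 4.30, 2.52 and 2.53 CPM in CRY2-ZLD embryos, against 303, 329, 241 and 241 CPM in wild type. The genotypes did not overlap in either window, and the differences were -6.28 ± 0.72 and -6.62 ± 0.63 (adjusted p = 8.67e-08 and 3.03e-09). Under NC14 light hry stood at 10.2, 8.63, 7.001 and 12.04 CPM in CRY2-ZLD embryos, against 208, 279, 104 and 263 CPM in wild type. All 4 CRY2-ZLD embryos were far below the lowest wild-type embryo, and the difference was -4.49 ± 0.56 (adjusted p = 8.63e-07). The contrast of the genotype effect on hry between NC13-14 and NC14 light, given below, did not pass with edgeR's test over all libraries. Under NC10-12 light hry stood at 99.6, 118, 21.5 and 29.8 CPM in CRY2-ZLD embryos, against 251, 252, 236 and 219 CPM in wild type. Replicates 1 and 2 held far more than replicates 3 and 4, yet all 4 were below wild type, with a difference of -1.83 ± 0.50 (adjusted p = 0.00508). It was -1.16 (adjusted p = 0.0161) without the 5 embryos set apart.

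The homeobox gene ftz, whose stripes alternate with those of eve, came closest to disappearing. Under NC10-14 light 3 CRY2-ZLD embryos held 0.753, 0.280 and 0.146 CPM, which are 19, 6 and 4 counts, against 297, 20.05 and 273 CPM in wild type. Under NC13-14 light CRY2-ZLD embryos held 0.651, 2.26, 0.923 and 2.61 CPM, against 283, 279, 275 and 250.1 CPM in wild type. These 2 windows gave differences of -8.95 ± 1.04 and -7.40 ± 0.82 (adjusted p = 1.34e-07 and 5.32e-08), the farthest from 0 among the 8 genes in each. Under NC14 light the CRY2-ZLD embryos were uneven, at 0.349, 3.32, 0.354 and 8.15 CPM, against 208, 309.6, 260.3 and 267 CPM in wild type. Replicates 1 and 3 had 8 counts each and replicate 4 had 161, and all 4 remained far below wild type, with a difference of -6.44 ± 0.78 (adjusted p = 5.37e-07). Under NC10-12 light, in contrast, ftz stood at 195, 234, 78.2 and 59.3 CPM in CRY2-ZLD embryos, against 278, 272, 303 and 242 CPM in wild type. The 2 genotypes did not overlap, but replicates 1 and 2 came close to the lowest wild-type embryo. Here the difference of -0.95 ± 0.61 missed the threshold (adjusted p = 0.247, 95% interval -2.20 to 0.30), and limma-voom gave -1.18 (adjusted p = 0.0479). It was -0.37 (adjusted p = 0.724) without the 5 embryos set apart.

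The zinc finger gene odd kept 1.93% of the wild-type level under NC10-14, 12.05% under NC13-14 and 30.6% under NC14 light. Under NC10-14 light it stood at 5.79, 4.62 and 1.46 CPM in CRY2-ZLD embryos, against 240.4, 24.2 and 350.03 CPM in wild type. Under NC13-14 light it stood at 14.5, 53.8, 25.8 and 33.2 CPM in CRY2-ZLD embryos, against 222, 246, 304 and 285 CPM in wild type. CRY2-ZLD embryos were lower throughout, with differences of -5.70 ± 0.78 and -3.05 ± 0.59 (adjusted p = 2.36e-06 and 3.04e-04). Under NC14 light odd stood at 55.4, 54.5, 67.2 and 58.8 CPM in CRY2-ZLD embryos, against 227, 221, 103 and 220.2 CPM in wild type. The CRY2-ZLD embryos were close together, and the lowest wild-type embryo, replicate 3, lay nearer to them than to its own group. The difference of -1.71 ± 0.56 passed the threshold (adjusted p = 0.0332), with an adjusted p between 0.0561 and 0.0764 when any 1 embryo other than that wild-type replicate 3 was left out, 0.115 when libraries were scaled by ribosomal protein genes, and 0.0502 with the replicate number as a block. Without the 5 embryos set apart, wild type replicate 3 among them, it was -1.91 (adjusted p = 7.66e-05). Under NC10-12 light odd stood at 175, 204, 25.6 and 25.1 CPM in CRY2-ZLD embryos, against 206, 232, 217 and 235 CPM in wild type. Replicates 3 and 4 were far below the rest and replicates 1 and 2 just below wild type. The difference was -1.05 ± 0.55 (adjusted p = 0.151, 95% interval -2.18 to 0.08), which did not pass, and -0.24 (adjusted p = 0.680) without the 5 embryos set apart. It passed with limma-voom (-1.70, adjusted p = 0.0188) and without CRY2-ZLD replicate 2 (-1.56, adjusted p = 0.0438).

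Of the secondary genes, prd was lower in all 4 windows. The prd protein joins a paired domain to a homeodomain. Under NC10-14 light it stood at 5.99, 2.89 and 3.28 CPM in CRY2-ZLD embryos, against 199.5, 14.7 and 164 CPM in wild type. Under NC13-14 light it stood at 6.25, 16.3, 9.88 and 11.7 CPM in CRY2-ZLD embryos, against 184, 189, 185 and 144 CPM in wild type. In both windows the genotypes were apart, with differences of -4.96 ± 0.69 and -3.99 ± 0.57 (adjusted p = 2.89e-06 and 3.54e-06). Under NC14 light prd stood at 6.45, 8.12, 21.4 and 20.1 CPM in CRY2-ZLD embryos, against 92.2, 261, 79.2 and 289 CPM in wild type. The wild-type embryos formed a low and a high pair here, both above every CRY2-ZLD embryo, and the difference was -3.68 ± 0.56 (adjusted p = 1.56e-05). Under NC10-12 light prd stood at 55.2, 49.6, 19.4 and 32.8 CPM in CRY2-ZLD embryos, against 191, 98.99, 229 and 132 CPM in wild type. All 4 CRY2-ZLD embryos were lower, those with little maternal RNA included, and prd differed by -2.05 ± 0.52 (adjusted p = 0.00285), or by -1.66 (adjusted p = 0.0159) without the 5 embryos set apart.

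The fork head genes slp1 and slp2, which encode repressors and lie side by side, received different calls under NC10-14 light. There slp1 stood at 12.3, 9.66 and 4.20 CPM in CRY2-ZLD embryos, against 157, 42.9 and 138 CPM in wild type. Its sister slp2 stood at 5.55, 4.06 and 1.39 CPM in CRY2-ZLD embryos, against 14.9, 0.978 and 13.5 CPM in wild type. For slp1 the genotypes were apart, while for slp2 wild-type replicate 2 lay below all 3 CRY2-ZLD embryos. The slp1 transcript differed by -3.69 ± 0.67 (adjusted p = 1.50e-04). For slp2 the difference of -1.42 ± 0.67 did not pass (adjusted p = 0.152, 95% interval -2.78 to -0.06), and it was -1.92 (adjusted p = 0.0321) without wild-type replicate 2. Under NC13-14 light slp1 stood at 5.30, 15.5, 2.15 and 8.37 CPM in CRY2-ZLD embryos, against 55.5, 71.9, 69.8 and 63.1 CPM in wild type. In the same embryos slp2 stood at 1.65, 2.15, 0.554 and 2.69 CPM in CRY2-ZLD, against 17.3, 22.4, 14.2 and 14.1 CPM in wild type. Neither gene overlapped between genotypes, and the differences were close, -3.06 ± 0.56 for slp1 and -3.28 ± 0.62 for slp2 (adjusted p = 1.53e-04 and 2.22e-04). Under NC14 light slp1 stood at 15.7, 15.7, 5.14 and 29.1 CPM in CRY2-ZLD embryos, against 87.8, 62.4, 60.7 and 45.1 CPM in wild type. For slp2 the values were 1.35, 2.06, 2.17 and 1.87 CPM in CRY2-ZLD embryos, against 19.4, 18.01, 19.9 and 14.1 CPM in wild type. Both genes were again apart between genotypes, with -1.96 ± 0.54 for slp1 (adjusted p = 0.0104) and -3.26 ± 0.62 for slp2 (adjusted p = 3.37e-04). The slp1 call ended when libraries were scaled by ribosomal protein genes (-1.54, adjusted p = 0.0582). Under NC10-12 light slp1 stood at 63.9, 33.4, 14.7 and 79.5 CPM in CRY2-ZLD embryos, against 65.4, 98.2, 81.5 and 75.1 CPM in wild type. There slp2 stood at 9.61, 3.86, 0.716 and 9.02 CPM in CRY2-ZLD embryos, against 17.9, 25.8, 22.4 and 20.4 CPM in wild type. It was slp1 that overlapped in this window and did not pass (-0.74 ± 0.52, adjusted p = 0.291, 95% interval -1.80 to 0.32), whereas slp2 was lower in all 4 embryos, at -1.90 ± 0.58 (adjusted p = 0.0119).

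Set per kilobase, the ratio of slp2 to slp1 lay between 0.201 and 0.273 in the 3 CRY2-ZLD embryos of NC10-14 light, against 0.0139 to 0.0596 in the 3 wild-type embryos. Wild-type embryos of the other windows ranged from 0.124 to 0.199, and unlit CRY2-ZLD embryos from 0.140 to 0.266. The wild-type embryos of NC10-14 light were therefore low in slp2 relative to slp1 beside all other wild-type embryos. Under NC10-12 light the ratio was 0.0296 to 0.0913 in CRY2-ZLD embryos, below the 0.160 to 0.167 of wild type. Low ratios were also seen in CRY2-ZLD embryos of NC14 light, at 0.0390 to 0.257 with a median of 0.0660, against 0.134 to 0.199 in wild type. Those of NC13-14 light ranged from 0.0844 to 0.196, against 0.124 to 0.190 in wild type, so the genotypes overlapped in these 2 windows. No test was run on these ratios.

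The late gene opa passed as lower in CRY2-ZLD embryos in every window, and its wild-type level also differed between windows. Under NC13-14 light opa stood at 12.5, 39.8, 20.5 and 20.2 CPM in CRY2-ZLD embryos, against 565, 553, 423 and 335 CPM in wild type. Under NC14 light it stood at 16.4, 32.3, 61.02 and 30.6 CPM in CRY2-ZLD embryos, against 364, 520.1, 403 and 602 CPM in wild type. In both windows the genotypes were widely apart, with differences of -4.33 ± 0.67 and -3.75 ± 0.65 (adjusted p = 1.35e-05 and 1.02e-04). Under NC10-12 light opa stood at 82.8, 179.9, 32.2 and 21.4 CPM in CRY2-ZLD embryos, against 406, 421, 505 and 414 CPM in wild type. Although replicate 2 held more than the other three, every CRY2-ZLD embryo was under wild type, and the difference of -2.46 ± 0.62 (adjusted p = 0.00256) was the farthest from 0 of the 8 genes in that window. It was -1.75 (adjusted p = 0.0230) without the 5 embryos set apart. Under NC10-14 light opa stood at 11.6, 6.06 and 2.01 CPM in CRY2-ZLD embryos, against 30.5, 3.13 and 89.2 CPM in wild type. The genotypes overlapped here, because wild-type replicate 2 was lower than 2 of the 3 CRY2-ZLD embryos. The difference of -2.65 ± 0.73 passed (adjusted p = 0.0116), but not without wild-type replicate 4 (-1.30, adjusted p = 0.282) or CRY2-ZLD replicate 4 (-2.16, adjusted p = 0.0838), nor in a fit of those 6 libraries alone (-2.63, adjusted p = 0.199), with limma-voom (-2.17, adjusted p = 0.159) or when scaled by ribosomal protein genes (-2.07, adjusted p = 0.0736). Both genotypes of this window were rich in maternal RNA.

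By window, 7 of 8 pair-rule genes were lower in CRY2-ZLD under NC10-14 light, where 7.58% of all tested genes were lower. Under NC10-12 light it was 5 of 8, against 16.5% of tested genes. Under NC13-14 light it was 8 of 8, against 8.94%, and under NC14 light 8 of 8, against 9.65%. All 32 differences were below 0. The median difference of the 8 genes was -4.77 under NC10-14, -1.49 under NC10-12, -3.73 under NC13-14 and -3.47 under NC14 light, while the median over all tested genes stayed between -0.03 and 0.07. In CPM of single embryos, the CRY2-ZLD embryos all lay below the wild-type embryos for 6 genes under NC10-14 light (15.7% of tested genes), 7 under NC10-12 (15.3%), 8 under NC13-14 (14.3%) and 8 under NC14 (8.37%). Without the 5 embryos set apart the numbers of lower genes were 8, 4, 8 and 8 in the same order of windows.

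**Figure D2:**
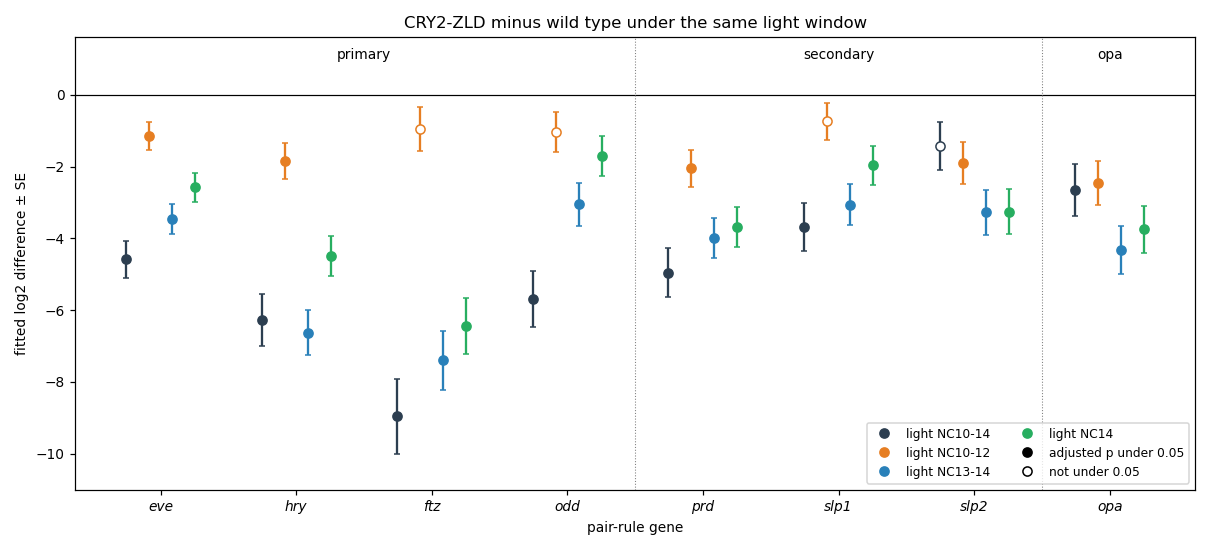
The plot gives the fitted log2 difference, CRY2-ZLD minus wild type, on the y axis for each pair-rule gene along the x axis, with 1 colour per light window, bars of 1 SE and open symbols where the adjusted p was not under 0.05. All 32 values lie below 0, the NC10-12 values (orange) run from -2.46 to -0.74, and ftz reaches -8.95 under NC10-14 light.

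Whether the windows differed was tested gene by gene as a difference of genotype differences. The genotype effect was deeper under NC10-14 than under NC10-12 light for 6 of 8 genes, when 4.84% of tested genes were lower in this contrast. The values were -3.43 ± 0.61 for eve, -4.44 ± 0.80 for hry, -8.00 ± 1.14 for ftz and -4.65 ± 0.89 for odd (adjusted p = 4.36e-04, 4.98e-04, 1.93e-05 and 0.00112). All primary genes thus passed. Of the secondary genes prd gave -2.90 ± 0.79 and slp1 -2.95 ± 0.81 (adjusted p = 0.0196 and 0.0205), calls that ended when single embryos were left out. For prd these were CRY2-ZLD NC10-14 replicates 2 and 4 and wild type NC10-14 replicates 1 and 4 (adjusted p up to 0.0772). For slp1 they were CRY2-ZLD NC10-12 replicate 4, CRY2-ZLD NC10-14 replicate 4 and wild type NC10-14 replicates 1 and 4 (adjusted p up to 0.0794). The remaining pair did not pass, slp2 at 0.48 ± 0.87 (adjusted p = 0.792) and opa at -0.18 ± 0.90 (adjusted p = 0.940). With limma-voom 3 genes passed, eve, ftz and slp1. When scaled by ribosomal protein genes the calls of prd (-2.73, adjusted p = 0.0743) and slp1 (-2.72, adjusted p = 0.0838) ended. The primary genes were farther from 0 without the 5 embryos set apart, at -4.38 for eve, -5.58 for hry, -9.06 for ftz and -5.93 for odd.

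Light restricted to NC10-12 also left a smaller deficit than light in NC13-14 for some primary genes. Here 3 of 8 genes were higher in the contrast, against 1.18% of tested genes, namely ftz at 6.45 ± 0.96, hry at 4.79 ± 0.73 and eve at 2.31 ± 0.55 (adjusted p = 9.29e-05, 1.29e-04 and 0.0219). The others ranged from 1.38 ± 0.81 for slp2 to 2.32 ± 0.74 for slp1 and did not pass. The eve call ended with limma-voom (2.15, adjusted p = 0.0633) and when scaled by ribosomal protein genes (2.35, adjusted p = 0.0884), and slp1 passed with DESeq2 (2.34, adjusted p = 0.0312). Without the 5 embryos set apart, 6 genes passed, with odd (2.80, adjusted p = 5.42e-04), prd (2.45, adjusted p = 0.0248) and opa (2.75, adjusted p = 0.0236) beside the same 3. Against NC14 light, ftz and hry passed, 2 of 8 with 2.98% of tested genes, at 5.49 ± 0.93 and 2.66 ± 0.70 (adjusted p = 0.00116 and 0.0262). The hry call ended without CRY2-ZLD NC14 replicate 1 or 3 or wild type NC10-12 replicate 1 (adjusted p up to 0.0551), with limma-voom (2.26, adjusted p = 0.123) and when scaled by ribosomal protein genes (2.60, adjusted p = 0.105). With the 5 embryos set apart left out, eve passed too (2.07, adjusted p = 0.00302), and hry was at 3.56 (adjusted p = 4.84e-05). All 3 contrasts share the NC10-12 embryos, and 2 of the 4 CRY2-ZLD embryos of that window were rich in maternal RNA. The libraries of NC10-12 and of NC14 were each numbered apart from the others in the column headers, with both genotypes in each set.

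Between NC10-14 and NC13-14 light, and between NC13-14 and NC14 light, no pair-rule gene passed with edgeR's test. The contrast of NC10-14 with NC14 was not tested. For NC10-14 minus NC13-14 the largest differences were -2.65 ± 0.87 for odd and 1.86 ± 0.88 for slp2 (adjusted p = 0.171 and 0.444), with 0.998% of all genes called. Without the 5 embryos set apart, odd (-3.13, adjusted p = 8.77e-04) and eve (-1.48, adjusted p = 0.0425) passed as lower. For NC13-14 minus NC14 the largest was hry at -2.13 ± 0.71 (adjusted p = 0.310), with 0.168% of all genes called. It passed in a fit of those 16 libraries alone (-2.16, adjusted p = 0.0226) and without the 5 embryos set apart (-2.004, adjusted p = 0.0433). DESeq2 and limma-voom each called 0 of the pair-rule genes in both contrasts.

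The primary and the secondary genes were compared within each embryo, as the mean log2(CPM + 0.5) of eve, hry, ftz and odd minus that of prd, slp1 and slp2. In CRY2-ZLD embryos of NC10-14 light this came to -1.14, -1.16 and -0.98, so the primary genes stood below the secondary ones on average. Single genes were mixed, with mean levels of 8.73 CPM for slp1, 4.48 for eve and 4.05 for prd. Next came odd at 3.96 and slp2 at 3.66 CPM, and hry at 1.90 and ftz at 0.393 CPM were the lowest. In wild type under the same light it came to 1.47, 1.13 and 1.79. The groups were far apart, with means of -1.09 ± 0.10 in CRY2-ZLD and 1.47 ± 0.33 in wild type (SD, n = 3 each). Under NC13-14 light the means were 0.37 ± 0.46 in CRY2-ZLD and 1.98 ± 0.13 in wild type (SD, n = 4 each), and under NC14 light 0.68 ± 0.21 in CRY2-ZLD and 1.64 ± 0.20 in wild type. The embryos of the 2 genotypes did not overlap in either window. Under NC10-12 light CRY2-ZLD embryos spread from 0.31 to 2.95 around a mean of 1.84 ± 1.11, and wild-type embryos from 1.44 to 1.76 around 1.67 ± 0.16, so the groups overlapped. Unlit CRY2-ZLD embryos lay between 1.98 and 2.32. The genotype difference was therefore -2.56 under NC10-14, 0.17 under NC10-12, -1.61 under NC13-14 and -0.96 under NC14 light, with no test, since the genes were sorted into classes with the results known.

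The contrast depended on how the genes were divided. With eve and hry alone as primary and the other genes as secondary, the differences were -1.02 under NC10-14, -0.77 under NC13-14 and 0.057 under NC14 light. The gene that changes sides with the largest deficit is ftz. Counting opa as secondary gave -0.72 under NC14 light. A pseudocount of 5 CPM in place of 0.5 gave -1.63 under NC10-14 light, where several values were under 5 CPM. The class medians of the fitted differences were -5.99 for the primary and -3.69 for the secondary genes under NC10-14, -1.10 and -1.90 under NC10-12, -5.04 and -3.28 under NC13-14, and -3.53 and -3.26 under NC14 light.

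**Figure D3:**
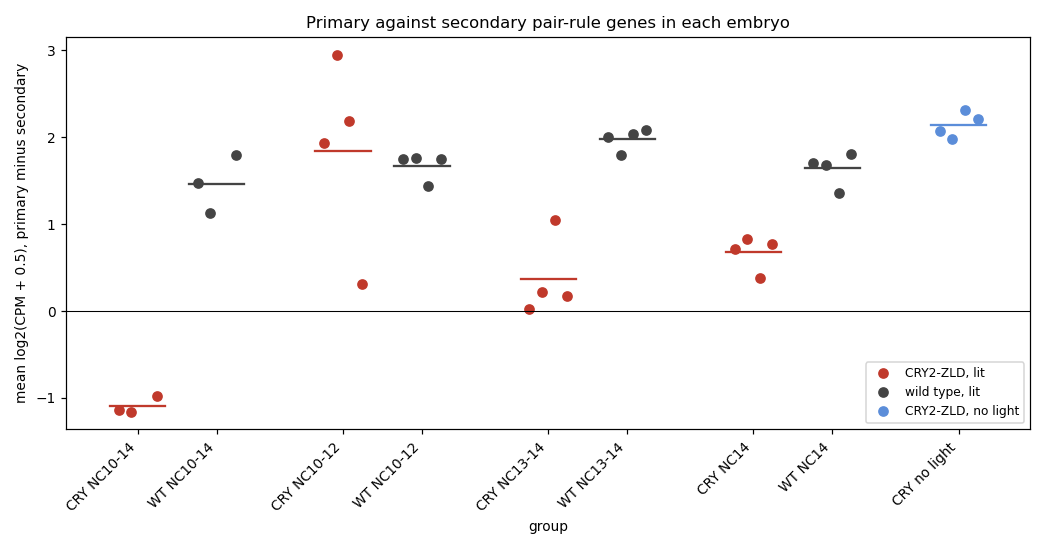
The y axis gives the mean log2(CPM + 0.5) of the primary genes minus that of the secondary genes in each embryo (points) with group means (lines), for CRY2-ZLD (red) left of wild type (grey) in each window and unlit CRY2-ZLD (blue). The CRY2-ZLD embryos of NC10-14 light lie between -1.16 and -0.98, below 0, and those of NC10-12 light overlap their wild type.

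Lit CRY2-ZLD embryos were also set against unlit embryos of their own genotype, in 4 comparisons that share the 4 unlit embryos. All 8 genes were lower under NC10-14 light (17.1% of tested genes lower) and under NC13-14 light (6.41%), 7 of 8 under NC14 light (2.57%) and 3 of 8 under NC10-12 light (14.4%). Embryos did not overlap for 8 genes under NC10-14 light (21.2% of tested genes), 8 under NC13-14 (13.5%), 7 under NC14 (7.03%) and 4 under NC10-12 (15.9%). The unlit libraries belong to the same header series as NC10-14 and NC13-14, so for NC10-12 and NC14 light and library set cannot be told apart.

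Unlit embryos held 302, 317, 345 and 253 CPM of ftz, 290.1, 243, 168 and 142 CPM of hry and 301, 296, 261 and 202 CPM of odd. Beside these the lit embryos differed, under NC10-14 light, by -9.58 ± 1.06 for ftz, -6.78 ± 0.72 for hry and -6.07 ± 0.79 for odd (adjusted p = 5.09e-08, 3.13e-08 and 5.72e-07). Under NC13-14 light ftz differed by -7.56 ± 0.82, hry by -6.22 ± 0.61 and odd by -3.06 ± 0.59 (adjusted p = 8.73e-08, 1.73e-08 and 5.76e-04). Every lit embryo of these windows lay below every unlit one. Under NC14 light ftz differed by -6.66 ± 0.79, hry by -4.47 ± 0.56 and odd by -2.17 ± 0.57 (adjusted p = 1.06e-06, 2.86e-06 and 0.0235), the odd call ending without any 1 of the CRY2-ZLD NC14 embryos or without unlit replicate 1 or 2 (adjusted p up to 0.0762). For eve, at 107, 113, 82.3 and 84.1 CPM in unlit embryos, the differences were -4.43 ± 0.50, -2.94 ± 0.41 and -2.55 ± 0.40 in the 3 windows that reached NC14 (adjusted p = 7.70e-08, 6.32e-06 and 8.77e-05).

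Of the secondary genes, prd held 122, 123, 159 and 180.2 CPM in unlit embryos, and lit embryos differed by -5.16 ± 0.68 under NC10-14, -3.73 ± 0.56 under NC13-14 and -3.38 ± 0.55 under NC14 light (adjusted p = 7.82e-07, 1.85e-05 and 1.25e-04). Unlit embryos were uneven in slp1, with 74.4, 80.3, 27.1 and 23.6 CPM, and likewise in slp2, with 17.5, 18.4, 11.9 and 8.46 CPM. The low pair, replicates 3 and 4, came from libraries with later header numbers. Within the earlier numbers, slp1 under NC13-14 light stood at 5.30 and 15.5 CPM in lit embryos, against 74.4 and 80.3 CPM in unlit ones. Within the later numbers it stood at 2.15 and 8.37 CPM in lit embryos, against 27.1 and 23.6 CPM in unlit ones. Lit embryos were lower within both, and the pooled difference was -2.72 ± 0.55 (adjusted p = 9.71e-04). Under NC14 light slp1 differed by -1.65 ± 0.53 and missed the threshold (adjusted p = 0.0862), but passed with a term for header numbers (-1.85, adjusted p = 0.0476), with DESeq2 (-1.59, adjusted p = 0.0349) without CRY2-ZLD NC14 replicate 4 (-2.08, adjusted p = 0.0381) and without the 5 embryos set apart (-1.65, adjusted p = 0.0495). Under NC10-14 light slp2 differed by -1.94 ± 0.65 (adjusted p = 0.0184), and by -1.55 without CRY2-ZLD replicate 4 (adjusted p = 0.110). The opa transcript, at 432, 446, 442 and 383 CPM in unlit embryos, differed by -6.02 ± 0.83 under NC10-14, -4.19 ± 0.67 under NC13-14 and -3.60 ± 0.65 under NC14 light (adjusted p = 1.39e-06, 4.27e-05 and 4.74e-04).

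Light in NC10-12 left 3 genes below the unlit level, with differences of -2.43 ± 0.62 for opa, -1.89 ± 0.52 for prd and -1.65 ± 0.50 for hry (adjusted p = 0.00341, 0.00617 and 0.0124). For hry the call ended without CRY2-ZLD NC10-12 replicate 3 or 4 (adjusted p = 0.0562 and 0.0569), without the 5 embryos set apart (-0.98, adjusted p = 0.0559) and when scaled by ribosomal protein genes (-1.53, adjusted p = 0.0595). The other genes gave -1.30 ± 0.56 for odd, -1.28 ± 0.57 for slp2, -1.10 ± 0.61 for ftz, -0.79 ± 0.38 for eve and -0.10 ± 0.52 for slp1, none of which passed (adjusted p = 0.0804, 0.0957, 0.189, 0.127 and 0.912). With limma-voom 6 genes passed, and with CRY2-ZLD NC10-12 replicate 1 or 2 left out 5 genes did.

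**Figure D4:**
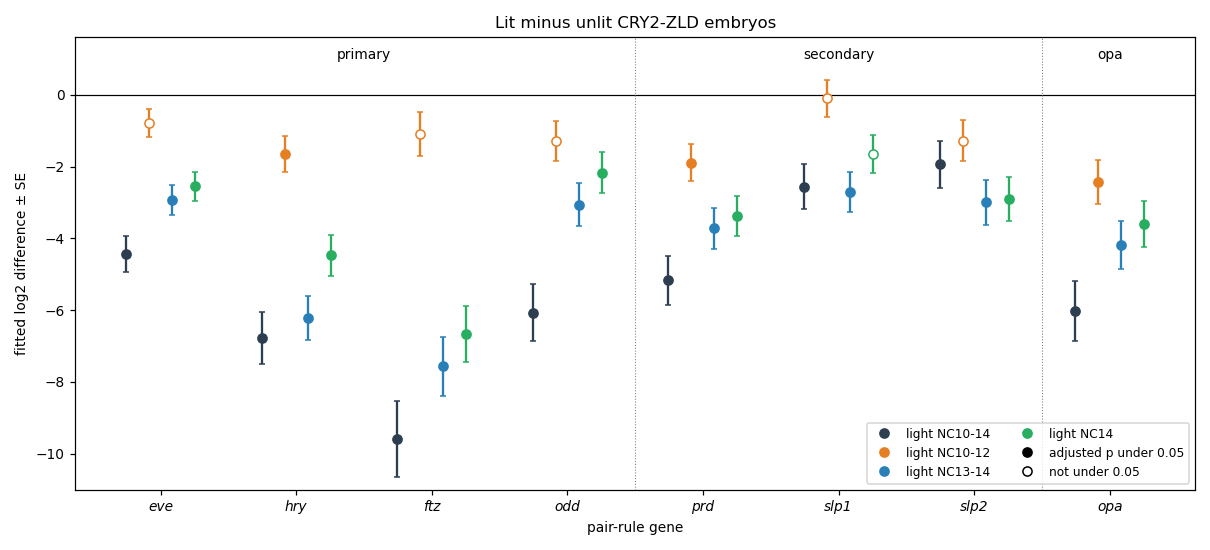
The plot gives the fitted log2 difference, lit minus unlit CRY2-ZLD, on the y axis for each pair-rule gene along the x axis, with 1 colour per light window, bars of 1 SE and open symbols where the adjusted p was not under 0.05. The NC10-12 values lie between -2.43 and -0.10, and the deepest is ftz under NC10-14 light at -9.58.

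Unlit CRY2-ZLD embryos were set against lit wild type, since no unlit wild type was analysed here. Against the average of wild type under NC10-14 and NC13-14 light, unlit CRY2-ZLD embryos differed between -0.74 ± 0.47 for slp1 and 0.40 ± 0.53 for ftz, and 7 of the 8 genes did not pass. Their outer 95% intervals were -1.70 to 0.23 for slp1 and -0.69 to 1.49 for ftz. The remaining gene, opa, was higher by 1.62 ± 0.51 (adjusted p = 0.0159), in 1 of 8 genes against 16.6% of tested genes. That value rested on the wild type chosen, and against wild type NC13-14 alone, opa differed by -0.14 (adjusted p = 0.923). Genotype and light differ together in this comparison, as the wild-type embryos were lit. For eve the difference was -0.34 ± 0.34 (adjusted p = 0.485), and -0.59 (adjusted p = 0.0448) without the 5 embryos set apart, in a comparison where 15% of tested genes were lower.

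The wild-type embryos themselves differed in opa. Under NC10-14 light they held 30.5, 3.13 and 89.2 CPM, against 565, 553, 423 and 335 CPM in wild type under NC13-14 light. All 3 were below all 4, with a difference of -3.51 ± 0.73 (adjusted p = 0.00128), and opa alone of the 8 genes passed with edgeR's test, where 7.99% of tested genes were lower. The other genes lay between -0.90 ± 0.53 for hry and 0.79 ± 0.55 for slp1 (adjusted p = 0.255 and 0.350), and hry passed with limma-voom (-1.499, adjusted p = 0.0372). In wild-type replicates 1 and 4 of NC10-14 light, ftz at 297 and 273 CPM and prd at 199.5 and 164 CPM reached the levels of NC13-14 light, whereas opa did not. Replicate 2 of that group was low for every member, from 0.978 CPM of slp2 to 42.9 CPM of slp1. Maternal RNA moved with these values: the list summed to 1347 to 2165 CPM in the wild-type embryos of NC10-14 light, against 189 to 428 CPM under NC13-14 light, and smg, which encodes an RNA-binding protein that clears maternal messages, was higher by 2.67 ± 0.55 (adjusted p = 0.00123). Its part in the opa difference was not tested, nor whether these embryos match the labelled stage. Within the maternal list 3 of 4 tested genes were higher in this comparison, against 10.5% of tested genes.

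**Figure D5:**
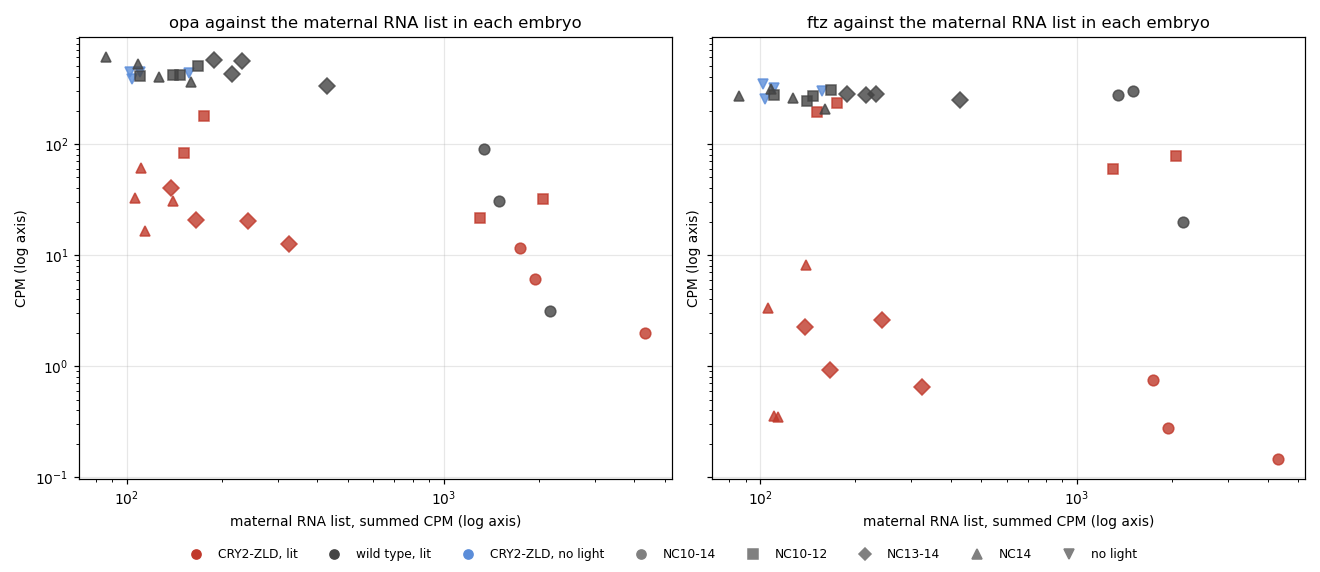
The panels plot opa (left) and ftz (right) in CPM on a log y axis against the summed CPM of the maternal genes smg, bcd, osk and gcl on a log x axis, 1 point per embryo, with colour for genotype and light and shape for the window. Embryos above 1000 CPM of maternal RNA have opa between 2.01 and 89.2 CPM in either genotype, while ftz reaches 297 CPM in wild type there.

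Across the 34 embryos the members moved together to differing degrees. Pearson's r of log2(CPM + 0.5) was 0.971 for eve and hry, 0.962 for hry and ftz and 0.959 for hry and prd, and the lowest of the 28 pairs was slp1 and opa at 0.633. Some striped pairs were lower than pairs with opa: odd stood at 0.726 with slp2 and 0.754 with slp1, while opa stood at 0.868 with eve and 0.892 with prd. After group means were removed, eve and odd stayed together most closely at 0.917, and the lowest pairs were slp1 with opa at 0.282 and slp1 with prd at 0.284, while slp1 and slp2 stood at 0.769. These points share libraries and their depth, and they describe the embryos without a test. The genes nearest to each member by the same measure, among 5939 genes with a mean of at least 5 CPM, were Nrt (r = 0.974) and CG14937 (0.973) for eve, Nrt (0.973) and dib (0.972) for hry, and asRNA:CR45270 (0.970) and hry for ftz. For odd they were CG14937 (0.956) and Inx3 (0.956), for slp1 gt (0.904) and Ac78C (0.904), for slp2 salm (0.881) and Doc2 (0.880), and for opa yellow-e3 (0.948) and Blimp-1 (0.946). Both neighbours of prd were members, hry and eve.

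The pair-rule gene runt (run), on the X chromosome and outside the 8, was lower in CRY2-ZLD in all windows, at -2.82 ± 0.48 under NC10-14, -1.97 ± 0.40 under NC10-12, -2.97 ± 0.42 under NC13-14 and -1.72 ± 0.40 under NC14 light (adjusted p = 7.20e-05, 3.35e-04, 3.29e-06 and 0.00270). Genes that work beside the pair-rule proteins were mixed: with run, 10 of 11 listed partners were tested, and 2 were lower and 2 higher under NC10-14, 2 and 1 under NC10-12, 3 and 2 under NC13-14, and 2 and 3 under NC14 light. Of the partners 1 was higher under NC10-14 and 2 under NC14 light without the 5 embryos set apart. Of all tested genes 7.58%, 16.5%, 8.94% and 9.65% were lower and 7.82%, 16.9%, 8.32% and 7.79% were higher in these windows. The medians of the partners lay between 0.0078 and 0.65. The zinc finger repressor Blimp-1, the nearest of these to opa across embryos, was lower, at -6.23 ± 0.71 under NC13-14 and -4.60 ± 0.64 under NC14 light (adjusted p = 8.20e-08 and 4.69e-06). Under NC14 light the repressor gene ttk was higher by 2.82 ± 0.60 and the paired-domain gene gsb by 3.48 ± 0.76 (adjusted p = 0.00108 and 0.00144). Under NC10-14 light drm, a gene of the odd family, was higher by 3.92 ± 0.71 and the HMG-box gene D was lower, at -2.01 ± 0.42 (adjusted p = 1.57e-04 and 9.54e-04). The nuclear receptor gene ftz-f1, whose product is the cofactor of the ftz protein, was higher under NC10-12 light by 4.01 ± 0.58 (adjusted p = 5.25e-06).

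Among maternal and gap regulators, which place the stripes, 5 of 9 were lower under NC10-14 light, 5 under NC13-14 and 2 under NC14, against 7.58%, 8.94% and 9.65% of tested genes. Under NC10-12 light 2 were higher, bcd and cad, against 16.9% of tested genes, and the gap genes did not pass in either direction. Their medians were -2.53, -0.02, -1.19 and -0.58, against the pair-rule medians of -4.77, -1.49, -3.73 and -3.47. The gap genes gt and tll stood at -4.85 ± 0.49 and -5.89 ± 0.85 under NC10-14 light (adjusted p = 9.88e-09 and 5.69e-06). Under NC10-12 light bcd, whose RNA is laid down by the mother, was higher by 7.14 ± 1.24 and cad by 1.48 ± 0.42 (adjusted p = 5.56e-05 and 0.00740). Maternal RNA was high in CRY2-ZLD replicates 3 and 4 of that window, at 2056 and 1303 CPM, against 152 and 175 CPM in replicates 1 and 2 and 110 to 168 CPM in wild type. Without the 5 embryos set apart, a setting chosen for these lists after seeing the data, bcd was higher by 2.44 (adjusted p = 0.0447) and cad did not pass (1.02, adjusted p = 0.138). Replicates 3 and 4 are among those 5, and bcd is part of the maternal sum, so that fit is not separate evidence. Of 8 tested segment polarity and Toll receptor genes, which act downstream, 2 were lower and 1 higher under NC10-14, 3 and 2 under NC10-12, 3 and 2 under NC13-14, and 1 and 2 under NC14 light, with medians of 1.21, -0.83, 1.15 and 1.38. Of all tested genes 7.58%, 16.5%, 8.94% and 9.65% were lower and 7.82%, 16.9%, 8.32% and 7.79% higher. The counts were 2 lower and 1 higher under NC10-12 light and 3 and 3 under NC13-14 without the 5 embryos set apart. Under NC13-14 light ptc, which encodes the Hedgehog receptor, and nkd, an antagonist of Wingless signalling, were lower, at -2.16 ± 0.43 and -4.20 ± 0.63 (adjusted p = 3.78e-04 and 7.87e-06). The Toll receptor gene Toll-6 was higher by 2.73 ± 0.45 in the same embryos (adjusted p = 4.15e-05). Under NC14 light wg, which encodes Wingless, was higher by 1.35 ± 0.42 and Tollo was lower, at -2.08 ± 0.65 (adjusted p = 0.0238 and 0.0251).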

How the data were processed

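Single embryos were sequenced as RNA, 1 library each, and p-values measure the spread between embryos. The authors deposited 1 table of raw read counts per gene for 34 samples, with exon length as the other column used. Per the submitters' processing notes and the file headers, they used Trimmomatic 0.36, HISAT2 2.1.0 with the dm6 assembly and featureCounts 1.5.3 with FlyBase annotation 6.20, and the notes also name DESeq2 1.14.1. Every sample column was matched to a sample title, and there were 0 columns of other samples. Of 17491 genes, 2887 had 0 counts everywhere, and symbols came from a gene name table for 17360.

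Genes were kept by filterByExpr with a minimum count of 10, which left 9519 genes with 99.98% of counts. Libraries were scaled by trimmed means in edgeR 4.0.16 (R 4.3.3). Quasi-likelihood fits of 9 group means over 34 libraries gave 15 contrasts, with Benjamini-Hochberg adjustment over all tested genes and a threshold of 0.05. The script was tested on simulated data. CPM values use the scaled library sizes, and per-library class means use a pseudocount of 0.5 CPM. The 8 members, the gene lists and the tests were chosen with earlier results of these data known. All members were named, and from each list up to 3 tested genes with the smallest p in a comparison. For likeness the 2 genes with the highest correlation were named.

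Library totals ran from 4382299 to 41210334 counts, and intervals and low counts carry counting error besides the spread between embryos. Column headers number the libraries in 3 sets: NC10-14, NC13-14 and unlit, then NC10-12, then NC14. Replicate numbers were taken from the labels and did not pair samples. Alternatives were DESeq2 size factors, ribosomal protein scaling on 85 genes, other count filters, DESeq2 1.42.0, limma-voom (limma 3.58.1), a replicate block, a term for header numbers, fits of the compared libraries alone, a threshold of 0.01, each embryo left out, 5 embryos left out together (for the gene lists chosen after seeing the data), other divisions of the genes and a pseudocount of 5 CPM.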

Additional observations from a re-analysis of the deposited data

Results flagged for a closer look

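Among 63 groups of values examined (each gene and the primary minus secondary contrast, in groups of 4 embryos), 4 held an embryo far from its group, and chance alone marks about 1 group in 20. For odd in wild type under NC14 light, replicate 3 stood at 103 CPM, against 220.2 to 227 CPM in the other embryos. For prd in wild type under NC13-14 light, replicate 4 stood at 144 CPM, against 184 to 189 CPM in the others, and that library had the fewest counts of all. For opa in wild type under NC10-12 light, replicate 3 stood at 505 CPM, against 406 to 421 CPM in the others. The same embryo had the lowest primary minus secondary value of its group, 1.44 on the log2 scale, against 1.75 to 1.76.

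The genotype effect differed between light windows in 11 of 40 tests of the difference itself. For NC10-14 minus NC10-12 light these were eve at -3.43, hry at -4.44, ftz at -8.00, odd at -4.65, prd at -2.90 and slp1 at -2.95. For NC10-12 minus NC13-14 light they were eve at 2.31, hry at 4.79 and ftz at 6.45. For NC10-12 minus NC14 light they were hry at 2.66 and ftz at 5.49. All 11 involve the NC10-12 embryos, which form a library set of their own with both genotypes in it, so they are not independent of one another. Of all tested genes, 4.84% were lower for NC10-14 minus NC10-12. For NC10-12 minus NC13-14 and NC10-12 minus NC14, 1.18% and 2.98% were higher. For NC10-14 minus NC13-14 and NC13-14 minus NC14, 0.998% and 0.168% were called in either direction.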

How the results depend on the processing

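Of 99 differences of single genes, all kept direction and call under DESeq2 size factors and under both other count filters, 97 under DESeq2, 98 with the term for header numbers, 94 with the compared libraries alone, 87 under ribosomal protein scaling, 86 without the 5 embryos set apart, 86 at a threshold of 0.01 and 85 with limma-voom. Ribosomal protein scaling moved the median of all genes to 0.32, 0.19, 0.28 and 0.42 under NC10-14, NC10-12, NC13-14 and NC14 light, from 0.06, -0.01, 0.07 and -0.03, and the share of lower genes among all calls to 36.6%, 33.7%, 37.9% and 23.96%, from 49.2%, 49.3%, 51.8% and 55.3%. It moved that share to 31.7% from 45.6% for lit NC10-14, to 27.9% from 43.1% for wild type NC10-14 minus NC13-14, to 56.8% from 46.3% for NC10-14 minus NC13-14 and to 9.09% from 19.4% for NC10-12 minus NC13-14.

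Numbers of pair-rule genes passing moved as follows, and the causes were not tested. At a threshold of 0.01 they were 3 for NC10-12, 1 for NC10-12 minus NC14 and 0 for unlit minus wild type. With limma-voom they were 1 for NC10-12 minus NC14, 3 for NC10-14 minus NC10-12, 6 for lit NC10-12 and 2 for wild type NC10-14 minus NC13-14. Ribosomal protein scaling gave 1 for NC10-12 minus NC14. Without the 5 embryos they were 6 for NC10-12 minus NC13-14, 2 for NC10-14 minus NC13-14, 1 for NC13-14 minus NC14 and 2 for unlit minus wild type. The compared libraries alone gave 1 for NC13-14 minus NC14. Against wild type NC13-14 alone, unlit embryos gave 0. With single embryos left out, the range was 1 to 2 for NC10-12 minus NC14 and 2 to 5 for lit NC10-12. The primary minus secondary difference was -1.02, -0.77 and 0.057 under NC10-14, NC13-14 and NC14 light by the older division, -1.63 under NC10-14 light with a pseudocount of 5 and -0.72 under NC14 light with opa as secondary.

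Signs turned as follows. The primary minus secondary difference under NC14 light, -0.96, turned by the older division above. With limma-voom, odd was -0.018 for NC10-12 minus NC14 and opa 0.77 for NC10-14 minus NC10-12. That opa contrast was 0.070 under ribosomal protein scaling and, over single embryos left out, ranged from -0.89 to 1.16, with 0.62 without CRY2-ZLD NC10-12 replicate 2, 0.31 without CRY2-ZLD NC10-14 replicate 4 and 1.16 without wild type NC10-14 replicate 4. For slp2 it was -0.19 without the 5 embryos. For slp1 under lit NC10-12 it ranged from -0.46 to 0.20, with 0.04 and 0.20 without CRY2-ZLD NC10-12 replicates 2 and 3, and 0.11 and 0.20 without unlit replicates 1 and 2. For opa in unlit embryos it was -0.14 against wild type NC13-14 alone.

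Embryos with the same replicate number did not deviate together (correlations from -0.16 to 0.33, best with the own number in 2 of 6, 3 of 8, 4 of 8 and 0 of 8 libraries). With the replicate block, odd under NC14 light was -1.65 (adjusted p = 0.0502), and the other 98 calls held. Low counts limit ftz and slp2 in lit CRY2-ZLD embryos.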

Other observations

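The 5 blastoderm genes slam, nullo, bnk, Nrt and halo, which act as cells form, were followed beside the pair-rule genes. Under NC10-14 light 5 of 5 were lower in CRY2-ZLD embryos, with a median difference of -3.97. Under NC10-12 light 1 was lower and 1 higher, with a median of -0.41, and under NC13-14 and NC14 light 4 were lower, with medians of -3.10 and -2.37. Of all tested genes 7.58%, 16.5%, 8.94% and 9.65% were lower under NC10-14, NC10-12, NC13-14 and NC14 light. Of the maternal list, 1 of 4 tested genes was higher under NC10-14 and 2 under NC10-12 light, against 7.82% and 16.9% of tested genes. The NC10-12 count was 1 gene without the 5 embryos set apart, a setting chosen after seeing the data. In that fit smg was at 0.17 (adjusted p = 0.785) in place of 2.60 (adjusted p = 3.12e-04). Among the embryos left out were CRY2-ZLD NC10-12 replicates 3 and 4, which were rich in maternal RNA by a sum that includes smg. That fit is therefore not separate evidence. Of genes of later tissues, 4 of 8 were tested, and of follicle cell and yolk genes 1 of 6, and none of these passed in edgeR's test in the 4 genotype comparisons.

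The ratio of ftz to eve per kilobase lay between 0.0374 and 0.106 in CRY2-ZLD embryos under NC10-14 light, 0.0524 and 0.174 under NC13-14, 0.0162 and 0.3002 under NC14 and 1.25 and 2.53 under NC10-12 light. It lay between 2.22 and 3.32 in unlit CRY2-ZLD embryos, against 0.713 to 2.93 in wild type. The ratio of opa to eve lay between 0.273 and 2.01 in lit CRY2-ZLD embryos, against 0.0671 to 0.305 in wild type under NC10-14 light and 1.27 to 2.74 in wild type under the other windows. These ratios are descriptions without a test.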
